A study of Mus musculus with 6 samples.

Results

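The accessible intervals described here are the narrowest of a liver ATAC-seq list, 201 bp wide, with a centre within 1 kb of either end of a protein-coding gene. ATAC-seq marks open DNA by the insertion of sequencing adapters with a transposase. The combined list held 120905 intervals, of which 55903 were 201 bp wide, and 4135 of these met the rule. They were chosen by their width and position, so neither is a finding about them, and the wider intervals at gene ends, 11636 in number, serve for comparison. According to the labels, 6 libraries were made from liver, 3 of the strain 129S1/SvImJ and 3 of C57BL/6J, all male, wild-type and fed a high-fat diet. They do not say whether the libraries of a strain came from separate animals. All 6 also carry an antibody entry naming Esrrg, whose role is not explained there. The list gave positions alone, with no column for a library or strain and no read count, so the strains were not compared, no value per sample exists, and the depth is unknown. All values below are descriptions of this list without a test. Intervals given in brackets are exact Clopper-Pearson 95% intervals, which cover counting error only, since intervals and genes are not replicates.

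A gene's transcription starts at its promoter, where nucleosomes are often displaced so that the polymerase and general factors can bind. Many mammalian promoters, above all those of broadly expressed genes, lie in stretches rich in the dinucleotide CpG, while promoters of genes with tissue-restricted expression, including many of the secreted products of hepatocytes, are often poor in CpG. The distal end of a gene, where its annotated transcript ends, has no such general mark of open chromatin. In tissue of mixed cells, a site open in few cells and a site weakly open in many cannot be told apart.

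The promoters below belong to hepatic genes whose ends carried 201 bp intervals and no wider one, and are, in each hepatic list that has such a gene, the promoter with its interval centred closest to the start. They are shown to set the interval beside its sequence. Each is the RefSeq window of 250 bases before to 50 bases after a start site, read 5′ to 3′ on the gene's strand, in the build GRCm38.p6, which is mm10, with every CpG in capitals. The window of C3, the central complement component, lies at chr17:57228087-57228386 on the minus strand and has 3 CpG. That of Hpd, an enzyme of tyrosine breakdown, lies at chr5:123182674-123182973 on the minus strand and has 7. Etfdh, which passes electrons from fatty acid oxidation to the respiratory chain, has its window at chr3:79628718-79629017 on the minus strand with 17. Abcb11, the bile salt export pump, has 4 in chr2:69342567-69342866 on the minus strand, and Slc2a2, the hepatocyte glucose transporter, has 2 in chr3:28697653-28697952 on the plus strand. Hlf, a clock output factor, has 30 in chr11:90390868-90391167 on the minus strand, and Foxa2, a pioneer factor of endoderm, has 23 in chr2:148045899-148046198 on the minus strand.
C3: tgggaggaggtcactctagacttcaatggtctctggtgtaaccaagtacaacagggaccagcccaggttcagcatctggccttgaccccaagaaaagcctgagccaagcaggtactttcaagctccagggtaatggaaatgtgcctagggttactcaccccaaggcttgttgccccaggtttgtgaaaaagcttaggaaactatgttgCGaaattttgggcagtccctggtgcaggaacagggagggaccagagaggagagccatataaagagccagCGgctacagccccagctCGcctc
Hpd: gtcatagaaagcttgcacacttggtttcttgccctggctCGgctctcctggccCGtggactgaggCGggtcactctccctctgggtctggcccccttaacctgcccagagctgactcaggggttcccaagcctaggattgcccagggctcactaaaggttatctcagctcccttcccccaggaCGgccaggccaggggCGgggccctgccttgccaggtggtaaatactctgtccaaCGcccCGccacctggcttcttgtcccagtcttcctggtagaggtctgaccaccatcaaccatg
Etfdh: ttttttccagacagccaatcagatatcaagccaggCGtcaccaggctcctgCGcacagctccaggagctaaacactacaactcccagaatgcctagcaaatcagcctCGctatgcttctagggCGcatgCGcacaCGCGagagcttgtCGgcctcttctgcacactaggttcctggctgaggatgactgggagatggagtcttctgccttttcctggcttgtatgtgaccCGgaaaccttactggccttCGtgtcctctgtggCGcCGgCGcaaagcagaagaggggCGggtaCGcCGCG
Abcb11: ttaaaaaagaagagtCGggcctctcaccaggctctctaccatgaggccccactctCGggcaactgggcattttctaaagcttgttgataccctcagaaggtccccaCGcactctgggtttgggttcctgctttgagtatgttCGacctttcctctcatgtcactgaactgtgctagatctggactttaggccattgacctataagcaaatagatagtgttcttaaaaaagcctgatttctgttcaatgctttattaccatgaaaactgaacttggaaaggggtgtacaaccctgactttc
Slc2a2: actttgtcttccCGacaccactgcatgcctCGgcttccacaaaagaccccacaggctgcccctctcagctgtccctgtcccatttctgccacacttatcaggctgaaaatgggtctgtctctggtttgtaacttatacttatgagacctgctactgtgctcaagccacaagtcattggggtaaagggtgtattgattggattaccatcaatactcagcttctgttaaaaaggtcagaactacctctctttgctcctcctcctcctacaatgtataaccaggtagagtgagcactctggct
Hlf: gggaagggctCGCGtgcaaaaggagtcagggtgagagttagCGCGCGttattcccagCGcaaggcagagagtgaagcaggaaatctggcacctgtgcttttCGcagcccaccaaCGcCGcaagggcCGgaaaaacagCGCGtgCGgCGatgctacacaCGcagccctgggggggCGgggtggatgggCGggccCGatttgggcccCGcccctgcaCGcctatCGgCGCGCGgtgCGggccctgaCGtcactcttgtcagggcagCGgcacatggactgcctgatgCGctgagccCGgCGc
Foxa2: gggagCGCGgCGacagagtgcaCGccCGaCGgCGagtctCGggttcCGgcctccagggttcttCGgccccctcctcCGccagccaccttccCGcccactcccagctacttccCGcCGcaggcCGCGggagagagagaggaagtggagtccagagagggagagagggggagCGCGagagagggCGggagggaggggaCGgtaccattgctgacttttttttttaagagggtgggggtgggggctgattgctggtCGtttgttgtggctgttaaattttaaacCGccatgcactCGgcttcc

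In these windows the 201 bp interval was centred 7 bp downstream of the start of Slc2a2 and 48 bp downstream of that of Hlf. It was centred upstream in the other 5, by 47 bp at Hpd, 51 bp at Abcb11, 66 bp at Etfdh, 201 bp at Foxa2 and 228 bp at C3. The sequences follow the reference strain C57BL/6J, and alleles of 129S1/SvImJ were not used. For contrast, 2 hepatocyte genes with only wider intervals at an end were taken by the same distance rule. F2, which encodes prothrombin, had a 282 bp interval centred 23.5 bp downstream of its start in chr2:91636408-91636707 (minus strand, 4 CpG). Hpx, which encodes the heme carrier hemopexin, had a 205 bp interval centred 38 bp downstream in chr7:105600067-105600366 (minus strand, 3 CpG). Both are as poor in CpG as C3, Abcb11 and Slc2a2.
F2: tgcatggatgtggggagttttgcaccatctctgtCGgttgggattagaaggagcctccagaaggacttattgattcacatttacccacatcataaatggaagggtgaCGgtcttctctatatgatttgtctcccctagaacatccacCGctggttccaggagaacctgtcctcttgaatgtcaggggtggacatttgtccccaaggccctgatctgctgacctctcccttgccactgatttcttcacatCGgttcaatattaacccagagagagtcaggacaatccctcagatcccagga
Hpx: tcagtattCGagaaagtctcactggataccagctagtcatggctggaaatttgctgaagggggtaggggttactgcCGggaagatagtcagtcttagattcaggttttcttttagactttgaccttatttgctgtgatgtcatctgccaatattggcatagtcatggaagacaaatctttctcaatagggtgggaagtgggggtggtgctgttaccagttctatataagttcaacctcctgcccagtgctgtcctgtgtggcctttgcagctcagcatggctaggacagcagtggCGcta

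The narrowest width was less frequent at gene ends than inside or outside genes. It made up 26.2% of the 15771 intervals at ends (25.5 to 26.9), against 44.4% of those deeper inside protein-coding genes (44.0 to 44.9) and 53.6% of those outside them (53.2 to 54.1). Seen the other way, 7.40% of all 201 bp intervals and 17.9% of all wider ones lay at an end. On single chromosomes the share at ends ran between 21.7% on the X chromosome and 28.9% on chromosome 15, leaving out the Y chromosome with 7 end intervals. The next width, 202 bp, had 2581 intervals, 483 of them at ends. The widths of the wider end intervals reached 401 bp, with a median of 218 bp and quartiles of 208 and 240 bp, so many were little wider than the members. The member farthest from an end was centred 999 bp away, and the nearest 201 bp interval outside the window 1002 bp.

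Members also lay farther from the end than wider intervals did. Their median distance to the nearest end was 308 bp (quartiles 94 and 593 bp), against 119 bp (47 and 388 bp) for the wider ones. Within 100 bp of the end lay 26.2% of the members (24.9 to 27.6) and 45.6% of the wider intervals (44.7 to 46.5). An end could be assigned to the start or to the other end where the RefSeq table gave the gene a start site. It did so for 3250 of the 4023 members outside chromosome 18 (80.8%) and 9435 of the 11334 wider intervals (83.2%). Only the strand was taken from that table here, so a start means the start-side end of the gene span. Some of these ends hold no listed start. The nearest listed start was 2324 bp from the member at the start side of Srebf1 and 70627 bp or more from those of Bcl9. Chromosome 18 was not used for this comparison.

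The kind of interval differed with which end of the gene it marked. At the distal ends of genes 39.4% of 2182 intervals were 201 bp wide (37.4 to 41.5), against 23.4% of 11063 intervals at starts (22.6 to 24.2). Most members nevertheless lay at starts, because starts carried far more intervals of either kind. Of the members, 73.5% were at a start only, 20.5% at a distal end only and 5.97% at both, for instance between neighbouring genes. Among wider intervals these shares were 86.0%, 10.1% and 3.88%. The share of the narrowest width was lowest just outside the start, at 14.8% from 0 to 100 bp upstream (13.6 to 16.2), and was 38.0% from 500 to 1000 bp upstream (34.0 to 42.1) and 35.0% from 250 to 500 bp into the gene (32.3 to 37.8). At distal ends it showed no such dip and was 40.7% from 0 to 100 bp outside the gene (28.1 to 54.3), where only 59 intervals lay.

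**Figure D1:**
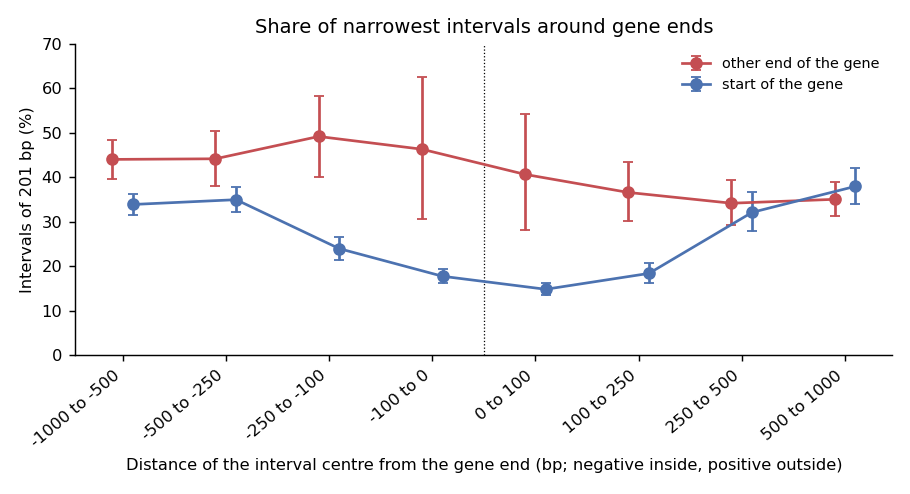
Share of 201 bp intervals among all intervals, in percent, by signed distance of the interval centre from the gene end in bp, for distal ends (red) and starts (blue), with exact 95% intervals. The starts have their lowest value, 14.8%, within 100 bp upstream, while the distal ends lie at 34.2% or more in every bin.

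Members often stood close together. Another 201 bp interval was centred under 400 bp away for 744 of the 4135 members (95% interval 16.8% to 19.2%), against 2043 of the 51768 intervals of 201 bp elsewhere (3.78% to 4.12%). This made 359 close pairs with a median spacing of 280 bp (quartiles 243.5 and 338 bp). Of the 282 pairs at the same annotated start, 123 (43.6%, 37.7 to 49.6) had a centre on either side of it. Abcd3, a peroxisomal fatty acid transporter, had such a pair, 196 bp upstream and 134 bp inside the gene. In other pairs both centres lay upstream, as at Abcb11, at 51 and 430 bp, and at Psmb9, an immunoproteasome subunit, at 79 and 435 bp. Nowhere in the list were 2 wider intervals centred closer than 401.5 bp, and a wider and a 201 bp interval never came closer than 318 bp, whereas 2 intervals of 201 bp came as close as 201 bp, where they touch. Width and spacing are thus tied in this list, and the rule that combined the libraries is not given in the sources used here. The part of that rule in these values was not tested. Without intervals that had another within 500 bp, the share of the narrowest width at ends was 21.4% and at starts 17.7%.

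**Figure D2:**
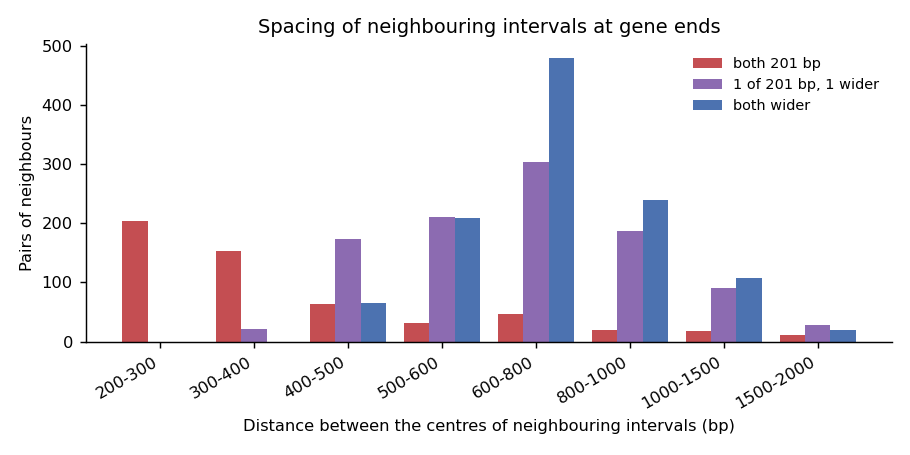
Number of pairs of neighbouring intervals, both at a protein-coding gene end, by the distance between their centres in bp, for pairs of 201 bp intervals (red), mixed pairs (purple) and pairs of wider intervals (blue). Below 400 bp there are 359 pairs of 201 bp intervals, 22 mixed pairs and none of wider intervals.

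At the level of genes, 2137 of 21887 protein-coding genes had 201 bp intervals at an end and no wider one, which is 9.76% of all such genes and 16.1% of the 13261 (60.6% of all) with any interval there. A further 9416 genes (43.0%) had only wider intervals, 1708 (7.80%) had both kinds and 8626 (39.4%) had none. Of the 2137 genes, 1633 had a single 201 bp interval, 447 had 2, 55 had 3 and 2 had 4. A close pair stood at an end of 320 of them (15.0%). Both ends were marked in 209. Their median length was 18.7 kb (quartiles 6.13 and 51.6), against 23.6 kb for genes with only wider intervals (10.2 and 55.6) and 9.43 kb for genes with none (2.28 and 28.5). Over autosomes and the X chromosome they made up 13.3% to 20.6% of the genes with an interval at an end, the lowest on the X chromosome and the highest on chromosome 18.

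Gene length was related to the kind of interval mostly among short genes. With genes in 4 classes of equal number by length, in the shortest, up to 5.67 kb, 497 of 2030 genes with an interval at an end had only 201 bp intervals (24.5%), against 15.1%, 13.8% and 15.0% in the following classes. In the shortest genes the 1 kb windows at both ends cover the whole span. Olfactory receptor genes such as Olfr243 (0.951 kb) are among them and were not left out. The part of such families in the 24.5% was not tested. In the third class, between 17.2 and 44.3 kb, 47.7% of genes with only 201 bp intervals at an end had a wider interval somewhere within the span (43.3 to 52.1), against 78.4% of genes with only wider ones at an end (76.9 to 80.0), where the interval at the end itself can count, and 41.8% of genes with none (39.5 to 44.2).

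Of the 2137 genes, 1625 (76.0%) had a start site in the RefSeq table. Because this is under 80%, a comparison of starts over the whole class would be void, and the values here are for those 1625 genes. The start side of the span alone was marked in 1244 (76.6%, 74.4 to 78.6), the distal end alone in 221 (13.6%) and both in 160 (9.85%, 8.44 to 11.4). Of the 7598 genes with a start and only wider intervals, 4.58% were marked at the distal end alone (4.12 to 5.07). A gene can have start sites inside its span, which the ends do not cover. Among the 1625, 144 (8.86%) had a wider interval within 1 kb of a listed start lying inside the span. Of these, 87 were among the 295 genes with 2 or more listed starts (29.5%, 24.3 to 35.1). The rest of the 144 had a wider interval near their only listed start, though not at an end of the span. Srebf1, the insulin-responsive activator of lipogenic genes, was 1 of the 144. It had a 201 bp interval 719 bp outside its span, which is 2324 bp upstream of the nearest start in the table. Within the span it had 3 wider intervals, and a wider interval lay within 1 kb of a listed start there.

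The 10 genes with the most members at their ends, ties taken in alphabetical order, had 3 or 4 each. Nosip, a regulator of nitric oxide synthase, had 4, with 3 at its start (682 and 16 bp upstream and 256 bp inside) and 1 beyond the distal end, and Phf3, a PHD finger protein gene on chromosome 1, also had 4. Atg101, an autophagy initiation factor, had 3 in a row upstream of its start, at 927, 359 and 14 bp. Brd7, a bromodomain protein, had 3 between 13 bp upstream and 905 bp inside, and Adamts12, a secreted metalloprotease, 3 between 515 bp upstream and 484 bp inside. Arhgap21, Aurkaip1, Bcl9 and Bend7 had 3 each. The remaining gene, Ahsg, encodes the hepatocyte protein fetuin-A and is described with the hepatic genes. The nearest wider interval lay 37.3 kb or more from the members of Adamts12, 59.3 kb or more from those of Bend7 and 60.9 kb or more from those of Brd7.

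Hepatic genes had 201 bp intervals alone about as often as other marked genes. Over 8 lists with 192 genes, covering secreted proteins, amino acid, lipid, bile acid and glucose metabolism, the clock and liver transcription factors, 172 genes had an interval at an end, and in 28 of these (16.3%, 11.1 to 22.7) it was of the narrowest kind only, close to the 16.1% of all marked genes. Of all 192 genes, marked or not, the share was 14.6%, against 9.76% of all protein-coding genes. With widths up to 210 bp the shares of marked genes were 36.0% of the hepatic and 41.3% of all, and with a window of 5 kb 11.1% and 13.6%. A further 29 had both kinds and 115 only wider ones. A close pair stood at 6 of the 28. Fatty acid and triglyceride synthesis had the fewest, with Srebf1 alone of 23 genes, and the other 22 had only wider intervals. Glucose and insulin genes had the most, with 6 of 22 marked genes (27.3%, 10.7 to 50.2). The lists are small, as the width of these intervals shows.

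Among secreted products of hepatocytes, 4 of 24 genes were of this kind. Ahsg, on chromosome 16 (22892015 to 22899451), had 3 members and none within its span, centred 685 bp upstream of its start and 625 and 851 bp beyond its distal end. Apoa1, the main protein of high-density lipoprotein, on chromosome 9 (46228630 to 46230469), had 2 at its distal end, 384 bp inside and 129 bp beyond, and none within 1 kb of its start. Apoe, which clears lipoprotein remnants, had 1 that was centred 111 bp inside its outermost start and lay at the end of another coding gene as well, 2011 bp upstream of the nearest start in the RefSeq table. C3 had 1, shown with its promoter, and its nearest wider interval was 9.02 kb away.

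Enzymes of the urea cycle and amino acid breakdown contributed 4 of 20 genes. Cps1, which makes carbamoyl phosphate from ammonia, had a member 429 bp inside its lower-coordinate end on chromosome 1 (67122426 to 67231267). Asl, which releases arginine and fumarate, had 2 at its upper-coordinate end, 411 bp inside and 6 bp beyond. Arg1, the arginase that forms urea, had members 27 bp inside and 914 bp outside its upper-coordinate end. No start of these 3 genes was used here. At Hpd, where a start was, the single member covered it and the nearest wider interval lay 32.9 kb away.

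Genes of fatty acid oxidation and ketogenesis contributed 4 of 25. Etfdh had 1 that it shared with a neighbouring coding gene. Fgf21, a hormone that the liver secretes on fasting, had 1 at its distal end, 438 bp inside the gene. In cholesterol and bile acid metabolism 3 of 27 genes were of this kind, among them Abcb11, described with its promoter. Fdft1, squalene synthase, had 1 centred 885 bp outside an end.

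Of the glucose genes, G6pc, the catalytic subunit of glucose-6-phosphatase, had a member 273 bp upstream of its start on chromosome 11 (101367716 to 101377903) and no interval inside the gene. Pck1, which commits carbon to gluconeogenesis, had a pair beyond its distal end, at 447 and 804 bp, and no interval at its start. Gcgr, the glucagon receptor, had 1 centred 86 bp outside its span, which is 1628 bp upstream of the nearest start in the table, and Foxo1, which activates gluconeogenic genes, had 1 centred 29 bp inside the gene. Slc2a2 had its member over the start and 4 wider intervals deeper in the gene. Ppargc1a, a coactivator of the same genes, also belonged to the class and is named because it completes the 6.

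Regulators of the clock and of hepatocyte identity were represented by 2 of 24 and 4 of 26 genes. Csnk1d, a kinase of PER proteins, had 3 members, at 302 bp inside and 88 bp outside its upper-coordinate end and 469 bp inside the lower. Hlf had members 48 and 948 bp inside its start. Cebpa, an activator of hepatocyte genes, had 1 centred 912 bp beyond its distal end and none at its start. Nr1i3, the constitutive androstane receptor, had 1 centred 886 bp outside the start side of its span. At Foxa2 the member lay 820 bp inside the outermost start but 201 bp upstream of an inner one.

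**Figure D3:**
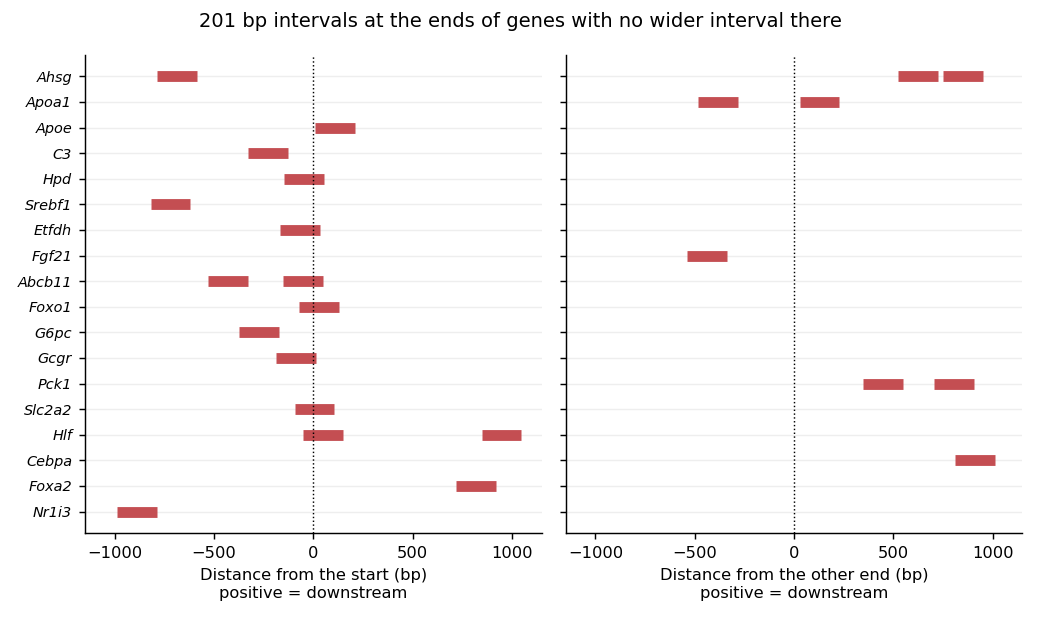
Positions of 201 bp intervals (bars, to scale) in bp relative to the start (left) and to the distal end (right) for the hepatic genes that had no wider interval at an end and a start in the RefSeq table. Slc2a2, Hpd, Etfdh, Foxo1, Abcb11, Hlf and Gcgr have an interval over the start-side end of the span, while Apoa1, Fgf21, Pck1 and Cebpa are marked at the distal end only.

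Markers of the other cells of the liver and of other tissues were described in 7 lists with 116 genes. Of these, 57 had an interval at an end (49.1%, against 60.6% of all protein-coding genes), and in 23 of the 57 (40.4%, 27.6 to 54.2) it was of the narrowest kind only, against 16.1% of all marked genes. The lists differed among themselves, and most are too small to be read alone. Macrophage and Kupffer cell genes had 5 of 7 marked genes in this class (71.4%, 29.0 to 96.3), endothelial genes 5 of 11 (45.5%), cholangiocyte genes 4 of 9 (44.4%), stellate cell genes 3 of 8 (37.5%), neuronal genes 4 of 13 (30.8%), lymphocyte genes 1 of 4 (0.631 to 80.6) and muscle genes 1 of 5 (0.505 to 71.6). As a check of the labelled tissue, the hepatocyte list had an interval of either kind at 19 of 24 genes (79.2%). The cholangiocyte (9 of 12 genes), endothelial (68.8%) and neuronal (65.0%) lists came close to it, while the stellate cell (50.0%), macrophage (35.0%), muscle (31.2%) and lymphocyte (25.0%) lists were lower.

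Macrophage genes with 201 bp intervals alone were Cd14, the lipopolysaccharide co-receptor, with 3, and Cd68, Cx3cr1, Lyz2 and Timd4 with 1 each. At Lyz2, the lysozyme gene of myeloid cells, the interval was centred 38 bp upstream of the start, and at Cd68 151 bp upstream. Endothelial genes of the class were Eng, a TGF-β co-receptor, with an interval centred 13 bp inside its start, Egfl7, Lyve1, Stab1 and Vwf. Spp1, which encodes osteopontin, Aqp1, a water channel, Cftr and Sox9 were those of the cholangiocyte list, with Aqp1 marked 19 bp inside its start. Col1a2, a fibrillar collagen, Dcn and Hand2 stood for stellate cells and fibroblasts. Gad1, Gad2, Nefl and Slc17a7 of the neuronal list, Myod1 of the muscle list and Cd3e of the lymphocyte list also had 201 bp intervals alone. Not all of these genes were marked at a start. The interval lay at the distal end of Cx3cr1 (134 bp beyond), Stab1 (987 bp beyond), Gad2 (528 bp inside) and Cd3e (661 bp inside). No start of Cd14, Lyve1, Vwf, Sox9, Dcn, Nefl and Myod1 was used here.

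Gene families ranged widely. Of 46 complex I genes, 45 had an interval at an end and 0 had 201 bp intervals alone (0% of 45, which allows up to 7.87%). Proteasome subunits had 3 of 35 marked genes in the class (8.57%), translation initiation factors 4 of 54 (7.41%), cytosolic ribosomal proteins 9 of 79 (11.4%) and mitochondrial ribosomal proteins 9 of 71 (12.7%). Taken as 1 group, these ubiquitous machines had 25 of 284 (8.80%, 5.78 to 12.7), against the 16.1% of all marked genes. Cytochrome P450 genes were at the other side, with 19 of 39 (48.7%, 32.4 to 65.2), including Cyp2b10, a phenobarbital-inducible enzyme marked 13 bp upstream of its start, and Cyp2d9, marked 39 bp downstream. Serpins had 8 of 28 (28.6%, 13.2 to 48.7, which includes the 16.1%), among them Serpina1d and the acute phase gene Serpina3n. P450, Serpina1 and Cyp2d genes have close copies, among which reads may not be placed uniquely, so single genes are uncertain.

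Chemoreceptor genes were rarely marked, and when they were it was mostly by the narrowest intervals. Of 1110 olfactory receptor genes, 124 had an interval at an end and 97 of these (78.2%, 69.9 to 85.1) had only 201 bp intervals. For vomeronasal receptors it was 11 of 16 (68.8%). Short genes such as Olfr209 (1.017 kb) and Olfr243 (0.951 kb) lie wholly within 1 kb of an end. An interval anywhere in such a gene counts as at an end. Of all 1465 genes of both families, marked or not, 7.37% had 201 bp intervals alone, against 9.76% of all protein-coding genes. Protocadherins had 17 of 35, but only 9 distinct intervals lay behind them, since genes of the gamma cluster share their distal end and 1 interval there lay at the end of 24 genes. Collagens had 8 of 19 (42.1%), with Col4a1 and Col4a2, basement membrane chains transcribed from a shared promoter region in opposite directions, marked by the same pair of intervals.

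**Figure D4:**
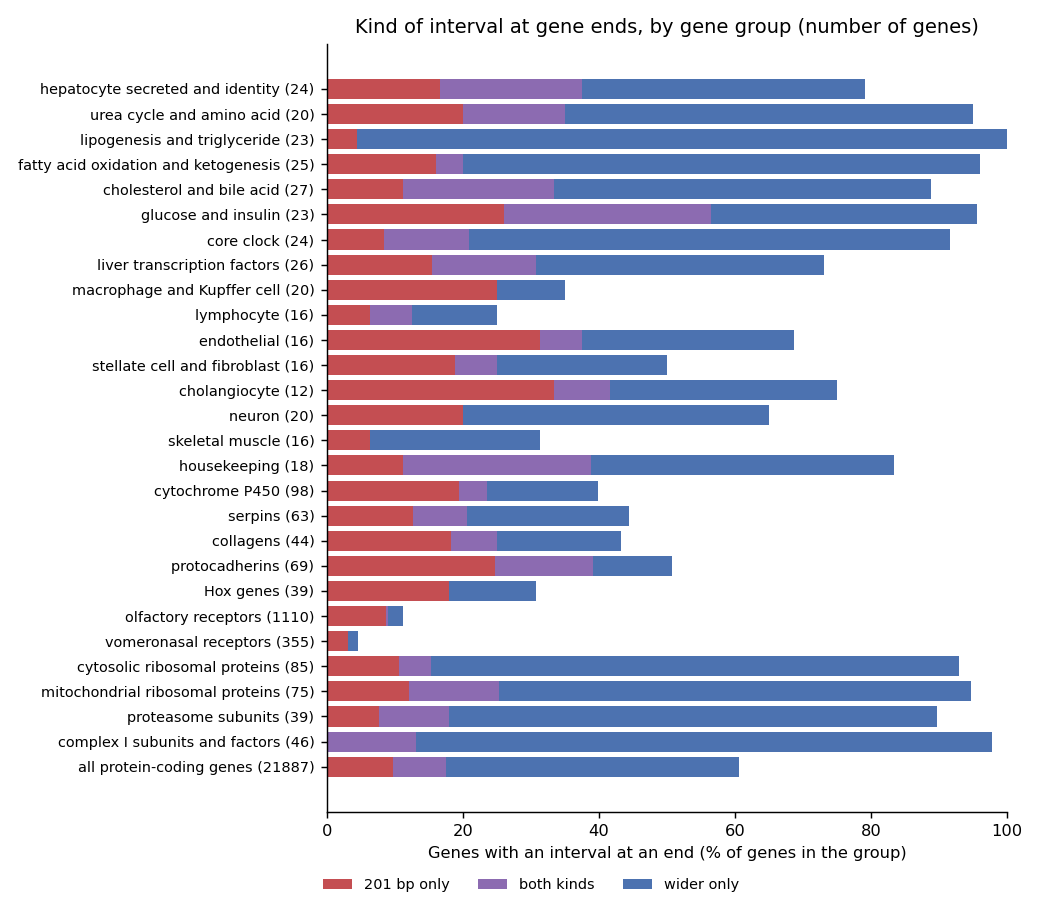
Percent of genes in each list or family with 201 bp intervals only (red), both kinds (purple) or wider intervals only (blue) at an end, with the number of genes in brackets and all 21887 protein-coding genes in the bottom row. Complex I has 0 genes with 201 bp intervals only, and the red part makes up most of the bar for macrophage genes and olfactory receptors.

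Promoters marked by 201 bp intervals were intermediate in base composition. The RefSeq table held 21238 distinct windows of 17469 protein-coding genes, and 1326 (6.24%) of them held the centre of a 201 bp interval, 7125 (33.5%) that of a wider one, 0 both and 12787 neither. Median GC content was 60.0% (quartiles 53.3 and 67.3), 62.7% (57 and 68.3) and 51.7% (44.3 and 59.7) in the same order. The observed over expected number of CpG, for which 1 means as many as the base content predicts, had medians of 0.72 (0.45 and 0.89), 0.79 (0.63 and 0.92) and 0.31 (0.15 and 0.66). A ratio of 0.6 or more was reached by 64.3% of windows with a 201 bp interval (61.6 to 66.8), 78.7% with a wider one (77.7 to 79.6) and 28.7% with neither (27.9 to 29.4).

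The difference lay mainly at the CpG-poor end. Of the windows with a ratio under 0.2, such as those of C3 and Slc2a2, 139 held a 201 bp interval and 199 a wider one, so that the narrowest kind made up 41.1% (35.8 to 46.6). From 0.2 to 0.4, where Hpd and Abcb11 fall, it was 27.6% (24.0 to 31.3), and from 0.4 to 0.6 it was 16.1% (14.0 to 18.5). Above 0.6 the share was nearly level, at 13.6%, 12.8% and 13.4%. In absolute terms 201 bp intervals were still more frequent in CpG-rich windows, at 8.69% of those between 0.8 and 1 and 2.96% of those under 0.2, but wider intervals changed more, at 59.2% and 4.24%. Etfdh (0.69), Foxa2 (0.77) and Hlf (0.89) stand for the CpG-rich windows.

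**Figure D5:**
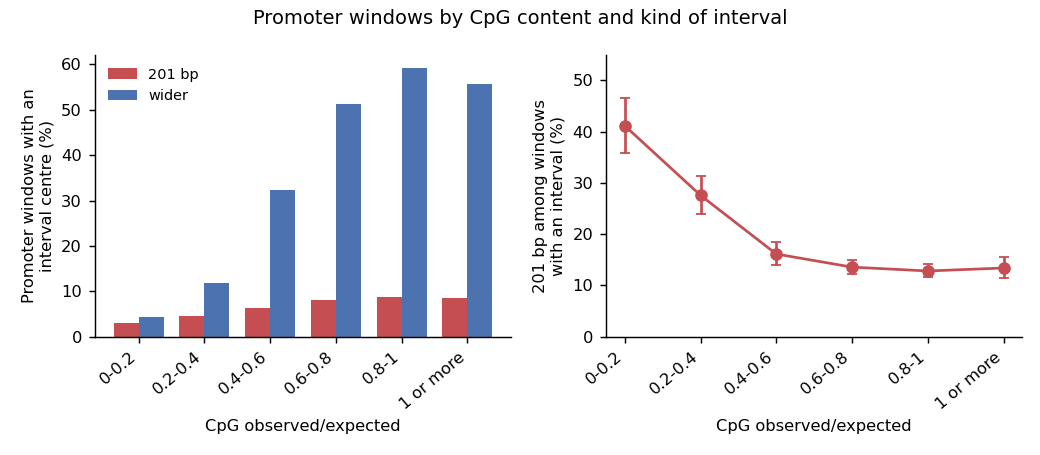
Left, percent of RefSeq promoter windows that held the centre of a 201 bp (red) or a wider (blue) interval, by CpG observed over expected. Right, percent of 201 bp intervals among windows with either kind, with exact 95% intervals, which is 41.1% in the poorest bin and 13.4% in the richest.

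Short promoter motifs were more frequent in windows with a wider interval in some cases and in windows with a 201 bp interval in others. Each was searched as exact letters on both strands, and a match is a description of the sequence and not a bound site. The GC box GGGCGG was present in 59.4% of windows with a 201 bp interval, 72.3% with a wider one and 46.2% of all windows. The ETS core CCGGAAG was in 16.3%, 20.1% and 11.6%, and the NRF1 palindrome in 9.20%, 11.3% and 6.38%. TATAAA was in 8.45%, 5.15% and 12.6%, so that windows with a 201 bp interval held it more often than those with a wider one and less often than all. CCAAT, which has no CpG, was in 37.4%, 41.6% and 38.2%, so it was also more frequent with a wider interval. The E-box CACGTG (8.52%, 9.29% and 7.84%) and the cAMP response element TGACGTCA (2.87%, 3.28% and 2.24%) differed little. AAGATGGCG, the core bound by YY1, was in 2.94%, 3.41% and 1.83%. The ERR element TCAAGGTCA was in 5 of the 1326 windows with a 201 bp interval (0.377%), 9 with a wider one (0.126%) and 0.334% of all. The HNF4 element CAAAGTCCA (5 windows), the C/EBP palindrome TTGCGCAA (3), the octamer ATTTGCAT (19) and the HNF1 palindrome (1) were also rare. No motif contains another. The GC box, ETS, NRF1, E-box, cAMP response, YY1 and C/EBP motifs each include a CpG, and windows with a wider interval were richer in CpG. The part of CpG content in their shares was not tested.

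Beyond the gene end, members lay closer by the median to other intervals than the comparison groups did. Another interval was within 500 bp of 25.6% of members and 2.92% of wider end intervals, but 2 wider intervals never came closer than 401.5 bp. The nearest other interval of any width was a median of 1.24 kb away (quartiles 0.495 and 6.50), against 4.67 kb for wider intervals at ends (0.955 and 9.97), 5.19 kb for 201 bp intervals deeper inside genes and 7.40 kb for those outside genes. The nearest wider interval was a median of 6.49 kb away for members (quartiles 1.07 and 16.6) and 7.60 kb for wider intervals at ends (1.90 and 15.8), so the upper quartile was higher for members. It was 9.42 kb for 201 bp intervals deeper inside genes and 21.2 kb for those outside. A wider interval lay within 1 kb of 985 members (23.8%), of 18.3% of wider end intervals, and of 6.31% and 3.90% of the 201 bp intervals elsewhere. More than 1 coding gene had an end within 1 kb of 439 members (10.6%) and of 13.7% of wider end intervals, and a lncRNA end was within 1 kb of 8.75% and 10.8%.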

How the data were processed

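ATAC-seq was performed on 6 libraries, and the authors deposited 1 combined list of interval positions on 21 chromosomes, in 3 columns without a score, signal or count. Positions are in bp (another unit than a measurement) and are those deposited by the authors. The submitters' processing notes name fastp, Bowtie2 and HOMER and the build mm10, with no versions or order. How reads were shifted, filtered and called, and how 6 libraries became 1 list, is not given in the sources used here, and width was not read as accessibility.

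Starts were converted to 1-based positions, and an interval was placed by its centre within 1000 bp of either end of the span of a protein-coding gene in the RefSeq table of GRCm38.p6 (21887 genes). Distances are to the end of the gene span unless a start in the table is named. A gene was assigned to a class by the intervals at both of its ends together. Strand and start sites came from RefSeq promoter windows, held for 17492 genes (79.9%) and none on chromosome 18. No exon or intron was used. CpG observed over expected is the number of CpG times 300, the window length, over the product of the numbers of C and G. Analyses used Python 3.11.15, pandas 2.3.3, numpy 2.4.6 and scipy 1.17.1, and placement was tested on simulated data.

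The members, 16 gene lists, 26 families given by symbol pattern and 13 motifs were chosen with earlier results of these data known. All 326 list entries were found. Genes named in the text are the 10 with the most members, up to 5 genes of each list and up to 2 of each family, by distance to the start. Ppargc1a was named after its values were seen. Some genes that this rule selects are not reported here. Promoters printed are the closest of each hepatic list, and for lipogenesis none qualified. Alternatives were windows of 500 bp and 5 kb, overlap in place of the centre, widths up to 210 bp, autosomes and X only, a reduced gene set, intervals within 500 bp of another left out, ends of 1 coding gene only, and each end on its own.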

Additional observations from a re-analysis of the deposited data

How the results depend on the processing

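Both directions held: the share of 201 bp intervals was higher at distal ends than at starts, and the CpG-rich share lower in windows with a 201 bp than with a wider interval, under all 9 settings that gave both values, the reported one included, although with widths up to 210 bp the latter difference was only 74.3% against 78.1%. Of 65 values under an alternative, 39 stayed within the 95% interval of the reported value or 1.5 times its count. With widths up to 210 bp there were 8049 members, 51.0% of end intervals, 5472 genes with that kind alone, 58.8% at distal ends and 49.0% at starts, and 36.0% of marked hepatic genes, against 41.3% of all marked genes. With a window of 5 kb there were 9121 members, 32.3% of end intervals and 29.1% at starts, and with intervals counted up to that distance from a start, CpG-rich windows were 39.4% for the narrowest and 66.3% for wider intervals, and the hepatic share was 11.1%, against 13.6% of all marked genes. With 500 bp the shares were 23.1% of end intervals, 20.6% at starts, and, counted likewise, 58.9% for the narrowest and 75.7% for wider intervals were CpG-rich. Without Gm-numbered, RIKEN and chemoreceptor genes the share was 25.3% at ends, 37.1% at distal ends and 22.5% at starts. Without intervals that had another within 500 bp it was 21.4%, 37.2% and 17.7%, and 59.3% of windows with a 201 bp interval were CpG-rich. For intervals at the end of 1 coding gene only, the distal share was 44.9%, and by overlap 77.5% of windows with a wider interval were CpG-rich. Judging each end on its own gave 2816 genes with an end of this kind. No paired analysis was possible because the list has no column per library, and for the same reason no library could be left out. The depth behind an interval is unknown, and the threshold of the list is not given.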

Other observations

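Of all protein-coding genes 9.76% had 201 bp intervals alone at an end, and of the marked ones 16.1%. Hox genes, which pattern the body axis, were marked in 12 of 39 cases, and 7 of these (58.3%, exact 95% interval 27.7 to 84.8) had the narrowest kind alone, or 17.9% of the family, among them Hoxa5, marked 13 bp inside its start. Keratin and keratin-associated genes of skin and hair had 11 of 16 marked genes in the class (68.8%, 41.3 to 89.0), with Krtap19-3 marked 7 bp inside its start, and defensins had 5 of 7 (71.4%, 29.0 to 96.3). Most genes of both families had no interval at all, 93 of 109 and 64 of 71, and over the whole family the shares were 10.1% for keratins and 7.04% for defensins, near or below that of all genes. Potassium channels had 9 of 40 marked genes (22.5%, 10.8 to 38.5), including Kcnn3 with an interval centred 93 bp upstream of its start. Rab GTPases had 6 of 55 marked genes (10.9%, 4.11 to 22.2) and zinc finger genes with Zfp symbols 34 of 302 (11.3%, 7.92 to 15.4). Mitochondrial carriers of the Slc25 family had 2 of 42 (4.76%, 0.582 to 16.2), where Slc25a36 had 3 members around its start. Conjugating enzymes of the glucuronosyl-, glutathione and sulfotransferase families had 9 of 39 (23.1%, 11.1 to 39.3), with Gstm2 marked by a pair of intervals at its start. The intervals of the potassium channels, Rab GTPases, mitochondrial carriers and conjugating enzymes include the 16.1% of all marked genes.

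On the Y chromosome, 4 of 256 protein-coding genes had an interval at an end, and the 1 with 201 bp intervals alone was Eif2s3y, a subunit of a translation initiation factor, with a pair centred 289 bp outside and 47 bp inside the start side of its span. Among the housekeeping list 2 of 15 marked genes (13.3%, 1.66 to 40.5) had 201 bp intervals alone, Hprt, a purine salvage enzyme, and Tfrc, the transferrin receptor.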
